A study of Mus musculus with 48 samples.

Results

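The genes described here encode the receptors through which cells sense interferons. They are Ifnar1 and Ifnar2 (type I), Ifngr1 and Ifngr2 (type II), and Ifnlr1 and Il10rb (type III). In the deposited list of regions bound by a methyl-CpG-binding domain, 21 of 95882 regions overlapped 1 of these 6 genes or lay within 5 kb of it, and 18 of the 21 lay in a single cluster on mouse chromosome 16 that holds Ifnar2, Il10rb, Ifnar1 and Ifngr2. The genes were chosen by a measured value, the lower count of a region in Ifnar1 in the colon of GermFree mice. The GermFree against ConvR values in the colon are therefore given as a description of these samples, and no test of them is read as a result.

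Interferons act on cells through paired receptor chains of the class II cytokine receptor family. One chain of each pair binds its ligand most strongly, and the chains together bring Janus kinases close enough to phosphorylate STAT transcription factors, which then switch on antiviral and immune genes. Type I interferons act on nearly all cells, interferon gamma comes mostly from natural killer and T cells, and the lambda interferons act mainly on epithelia, the lining of the gut among them. Il10rb encodes a chain shared by the lambda interferon receptor and the receptors for interleukin-10 and interleukin-22.

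The samples were 7 mice labelled GermFree, which the series describes as germ free, and 5 labelled ConvR, described as conventionalized, meaning that they carried a gut microbiota. Each mouse gave 1 library from each of the duodenum, jejunum, ileum and colon, 48 libraries in all. The labels used here name no strain, age, sex or treatment, and the tissue label is intestine, so the DNA came from whatever cells a piece of gut holds. DNA was sheared, fragments with CpG methylation were captured with a methyl-CpG-binding domain protein (MethylMiner kit), and the captured DNA was sequenced. The count of a region therefore rises with methylation, with the number of CpG sites and with the width of the region, and a difference between samples can come from the methylation of a cell type or from the mixture of cell types, which cannot be told apart. Levels below are CPM, a unit in which TMM factors over the 48 libraries make counts of deeper and shallower libraries comparable, with SD over mice. For counts summed over the small intestine, the TMM factors were computed on the sums. Those levels therefore differ slightly from the means of the small intestinal sections. Library totals ran from 1007560 to 3033782 counts, and the shallowest library was the ileum of ConvR mouse 1. No marker gene of epithelium, leukocytes, smooth muscle or enteric neurons and glia had a region past the threshold in any comparison, but captured DNA gives no RNA level with which the tissue label could be checked.

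The starts of 5 of the genes carry many CpG sites, and, as at most promoters, no captured region overlapped them. Promoter sequences from the RefSeq promoter table (build GRCm38.p6, the coordinates of mm10) were found for 5 of the 6 genes, all but Il10rb. None of the 5 windows of 300 bp overlapped a captured region, against 2816 of 32851 windows of all promoters (8.572%) and 181 of the 11920 windows (1.518%) that have at least 14 CG dinucleotides, the lowest number in the 5. A CG dinucleotide, the site that is methylated, occurs in 94.57% of all promoter windows, with a median of 7, and 36.29% have at least 14. The nearest captured region lay 2553 bp from the Ifnar2 window, 3121 bp from that of Ifngr2, 6662 bp from that of Ifnar1, 8207 bp from that of Ifnlr1 and 10742 bp from that of Ifngr1. The 250 bases before each listed start are shown because they hold most of these CG dinucleotides and no captured region, with every CG in capitals. They hold 19 CG in Ifnar1 (chr16:91484965-91485214), 11 in Ifnar2 (chr16:91372533-91372782), 11 in Ifngr1 (chr10:19591699-19591948), 25 in Ifngr2 (chr16:91546809-91547058) and 14 in Ifnlr1 (chr4:135686207-135686456), all on the plus strand, 5′ to 3′. The listed start of Ifnar1 lies inside the gene of the gene table, which begins at 91485032.
Ifnar1: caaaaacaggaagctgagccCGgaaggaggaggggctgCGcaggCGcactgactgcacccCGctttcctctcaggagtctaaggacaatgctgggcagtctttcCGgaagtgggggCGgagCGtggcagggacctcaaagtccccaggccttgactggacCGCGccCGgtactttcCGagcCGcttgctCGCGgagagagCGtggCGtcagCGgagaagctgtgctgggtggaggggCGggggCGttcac
Ifnar2: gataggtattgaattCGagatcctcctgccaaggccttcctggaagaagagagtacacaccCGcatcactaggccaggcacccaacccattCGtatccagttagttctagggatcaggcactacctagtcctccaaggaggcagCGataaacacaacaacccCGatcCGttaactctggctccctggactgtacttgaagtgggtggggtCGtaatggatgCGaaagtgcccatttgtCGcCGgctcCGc
Ifngr1: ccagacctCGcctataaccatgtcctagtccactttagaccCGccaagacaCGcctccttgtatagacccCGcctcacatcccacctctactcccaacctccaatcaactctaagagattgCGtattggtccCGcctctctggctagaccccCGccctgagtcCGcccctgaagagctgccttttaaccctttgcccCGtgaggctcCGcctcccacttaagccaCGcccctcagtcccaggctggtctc
Ifngr2: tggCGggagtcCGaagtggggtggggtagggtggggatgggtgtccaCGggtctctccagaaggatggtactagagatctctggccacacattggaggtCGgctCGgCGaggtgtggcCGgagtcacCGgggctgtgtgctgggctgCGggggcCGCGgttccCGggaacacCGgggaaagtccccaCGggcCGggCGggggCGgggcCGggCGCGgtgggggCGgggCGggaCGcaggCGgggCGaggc
Ifnlr1: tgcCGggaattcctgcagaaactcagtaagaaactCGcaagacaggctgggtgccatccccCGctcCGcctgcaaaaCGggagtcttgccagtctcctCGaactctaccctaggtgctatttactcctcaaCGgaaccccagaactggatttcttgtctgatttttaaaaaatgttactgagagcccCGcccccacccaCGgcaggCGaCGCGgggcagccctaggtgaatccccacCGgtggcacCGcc

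Captured DNA lay instead mostly in the bodies and beyond the ends of the genes. A region also lay before the start of Ifngr2, and the region inside the end of Ifnar2 lay before the start of Il10rb. The regions are numbered along each gene in genome order. Ifnar1 (chromosome 16, 91485032 to 91510523), the chain that binds type I interferons with lower affinity and docks the kinase Tyk2, had 4 regions inside the gene that covered 20.5% of it, and a last one that began 3170 bp beyond it and overlapped the predicted gene Gm7856. Ifnar1 region 4 (91504803 to 91507033, 2231 bp) held 13.3 CPM on average over the 48 libraries, and Ifnar1 region 5 (91513693 onwards, 3087 bp) held 15.1 CPM. Ifnar1 regions 1, 2 and 3 began at 91491926, 91496222 and 91498810 and held 10.3, 4.51 and 3.83 CPM. Ifnar2 (91372783 to 91405589), the high-affinity chain for type I interferons, had 5 regions over 32.0% of the gene. The highest of them in CPM was Ifnar2 region 2 (91381025 onwards, 3666 bp; 19.2 CPM). Ifnar2 regions 1, 3 and 4 began at 91375385, 91391706 and 91398038 and held 15.4, 8.28 and 3.95 CPM, and region 1 also overlapped the predicted gene Gm36587.

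Between Ifnar2 and Il10rb the capture listed a single region that counts for both genes, here Ifnar2 region 5 (91403529 to 91405202, 1674 bp; 10.9 CPM). It lies inside the end of Ifnar2 and ends 955 bp before Il10rb. Il10rb (91406157 to 91425834) had 3 more regions, from 91411695 (region 1, 5.09 CPM), 91419076 (region 2, 8.67 CPM) and 91424397 (region 3, 10.2 CPM), and region 3 runs over the end of the gene to 91426153. Ifngr2 (91547059 to 91564007), the signalling chain of the interferon gamma receptor, was the most covered of the 6 genes, with 42.1% of its length. Ifngr2 region 3 (91556621 to 91560313, 3693 bp; 19.9 CPM) lies wholly within it, between regions 2 (from 91552752, 8.71 CPM) and 4 (from 91562156, 11.7 CPM). Ifngr2 region 1 (from 91543223, 4.16 CPM) ends 3371 bp before the gene. Ifngr2 region 5 (91568455 to 91577690) begins 4448 bp beyond it, just inside the 5 kb limit, overlaps the neighbouring gene Tmem50b and held 45.0 CPM over 9236 bp.

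Outside the cluster the genes had few but wide regions. Ifngr1 (chromosome 10, 19591949 to 19610229), the ligand-binding chain for interferon gamma, had 1 region of 8706 bp that runs past the end of the gene (19602740 to 19611445), with 38.9 CPM. Ifnlr1 (chromosome 4, 135686457 to 135708181), the chain specific to lambda interferons, had region 1 from 135701097 (4282 bp, 19.9 CPM) and region 2 from 135708014 (3801 bp, 18.4 CPM), which begins at the end of the gene. Just outside the 5 kb limit lay a region 5175 bp beyond Il10rb, with 4.80 CPM, and another 5662 bp beyond Ifnlr1, with 5.47 CPM. The 21 regions had a median width of 1968 bp and a median of 5.40 CPM per kb, against 1208 bp and 6.22 CPM per kb over all 95882 regions, so the receptor regions were wider and held a little less captured DNA per kb.

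**Figure D1:**
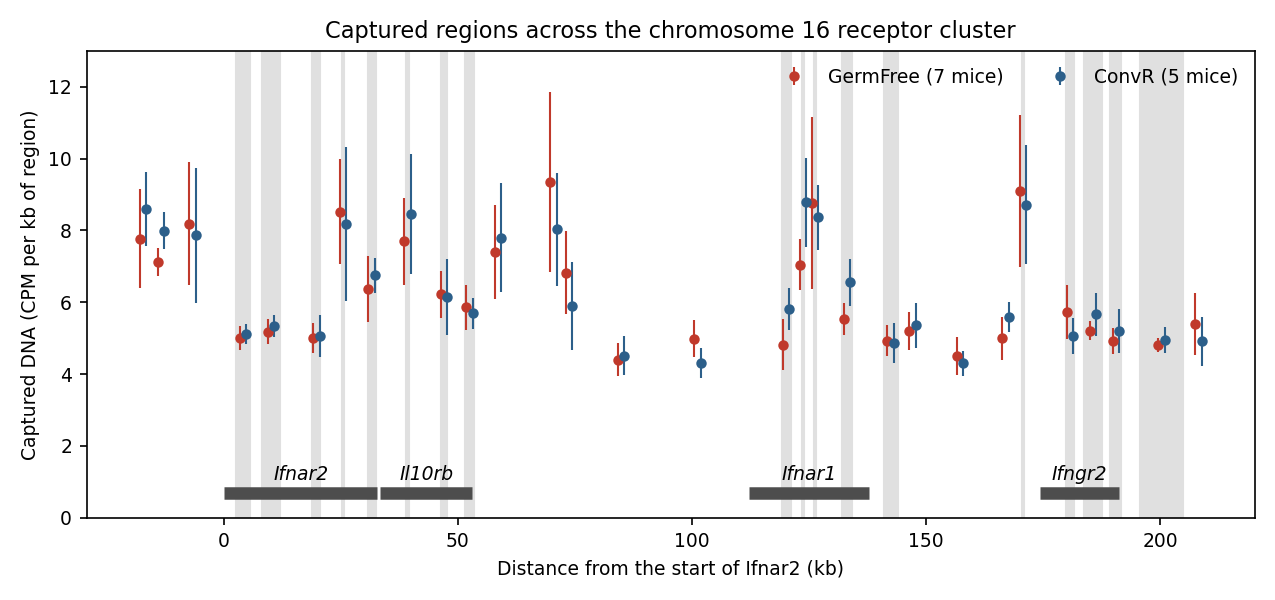
Captured DNA in CPM per kb of region (vertical axis) at each region of the chromosome 16 cluster, against the distance of its centre from the start of Ifnar2 in kb (horizontal axis). Points are means of 7 GermFree mice and 5 ConvR mice, each averaged over 4 sections, bars are SD over mice, grey bands are the 18 regions within 5 kb of the 4 genes and dark bars are the genes. Most regions lie between 4 and 9 CPM per kb in both groups, and none lies at the starts of Ifnar1, Ifnar2, Il10rb or Ifngr2.

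Per kb of region, Il10rb held the most captured DNA and Ifngr1 the least, an order that cannot be told apart from the width of the regions. Narrow regions tended to hold more per kb, with 8.60 CPM per kb at Ifnar1 region 3 (445 bp) and 4.87 at Ifngr2 region 5 (9236 bp). The sum at Il10rb includes the region inside Ifnar2, and that at Ifngr2 includes region 5, which overlaps Tmem50b. Averaged over the 4 sections, the summed level was 6.37 ± 0.473 CPM per kb at Il10rb, 5.66 ± 0.451 at Ifnar1, 5.50 ± 0.242 at Ifnar2, 5.17 ± 0.193 at Ifngr2, 4.74 ± 0.227 at Ifnlr1 and 4.47 ± 0.246 at Ifngr1 (SD, n = 12 mice). Ifnar1 and Ifnar2 differed by less than the SD of Ifnar1. The other neighbours in this order differed by more than the larger of their 2 SDs, Ifnlr1 and Ifngr1 only just. Each gene kept a narrow range over the 8 groups of model and section. The group means of Ifngr1 ran from 4.24 to 4.75 CPM per kb, those of Ifnar2 from 5.21 to 5.90, those of Ifngr2 from 4.80 to 5.66 and those of Ifnlr1 from 4.34 to 5.15. Il10rb ranged from 5.53 to 6.91 CPM per kb, with both of its lowest means in the colon (5.53 ± 0.797 in GermFree mice and 5.73 ± 0.424 in ConvR mice), and Ifnar1 from 4.91 to 6.61.

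In the small intestine none of the receptor regions differed between GermFree and ConvR mice past the threshold. This comparison used the counts of the duodenum, jejunum and ileum summed for each mouse, which leaves out the colon libraries that led to the choice of genes. All 21 regions were tested, and edgeR's quasi-likelihood test with Benjamini-Hochberg adjustment over all regions called 0 of 21 at 0.05, against 415 of all 95882 regions (0.433%). All 21 lie on autosomes, and a fit on autosomes alone called 242 regions and 0 of the 21. At an unadjusted p under 0.05, 0 of 21 passed in edgeR and 0 of 21 in DESeq2, against 4959 of all regions (5.17%) in edgeR. The log2 differences (GermFree over ConvR) ran from -0.28 to 0.20 with a median of -0.02, 10 above 0 and 11 below, and the median over all regions was near 0. The 95% intervals of the 21 differences lay within -0.58 and 0.56 on the log2 scale, and missing the threshold does not show that the groups were alike. Nor did the GermFree and ConvR mice separate without overlap at any of the 21 regions, against 0.378% of all regions.

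Among the type I receptor regions, both ends of that range were in Ifnar1 and Ifnar2. Ifnar1 region 2 was lowest, with 4.18 ± 0.437 CPM in 7 GermFree mice and 5.08 ± 0.954 CPM in 5 ConvR mice (SD). The log2 difference was -0.28 with an SE of 0.16, and the adjusted p of edgeR was 0.973. Ifnar1 region 1 held 9.77 ± 1.54 CPM in GermFree mice and 11.4 ± 0.845 in ConvR mice (SD; log2 -0.20; edgeR adjusted p = 0.973). Ifnar2 region 4, among the narrowest, was at the other end with 4.05 ± 0.684 CPM in GermFree mice and 3.57 ± 0.972 in ConvR mice (SD; log2 0.20, SE 0.18; edgeR adjusted p = 0.995). The type II and type III receptor regions had log2 differences from -0.15 to 0.16. Ifngr1 held 39.8 ± 3.21 CPM in GermFree mice and 39.1 ± 2.57 in ConvR mice (SD; log2 0.02, SE 0.07), and Ifnlr1 regions 1 and 2 had log2 differences of -0.04 and 0.07. Ifngr2 region 3 held 20.3 ± 1.27 CPM in GermFree mice and 22.4 ± 2.75 in ConvR mice (SD; log2 -0.15, SE 0.08; edgeR adjusted p = 0.973).

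Section by section, the same comparison again called none of the receptor regions in the small intestine. In the duodenum 0 of 18 tested regions passed in edgeR, against 0.463% of all tested regions. In the jejunum it was 0 of 18, against 0.343%, and in the ileum 0 of 19, against 0.365%. DESeq2 called 0 receptor regions in each. On autosomes alone edgeR called 195 regions in the duodenum, 122 in the jejunum and 158 in the ileum, none of them receptor regions. At an unadjusted p under 0.05, edgeR had 0 in the duodenum, 0 in the jejunum and 1 in the ileum (5.26%), which was Ifnar1 region 4, against 6.99%, 5.36% and 5.12% of all tested regions in these sections. The remaining 3, 3 and 2 regions had too few counts in those sections to be tested. No receptor region separated the GermFree from the ConvR mice without overlap in any section, against 0.46% of all regions in the duodenum, 0.3% in the jejunum, 0.318% in the ileum and 0.5% in the colon.

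The region that led to the choice of these genes, Ifnar1 region 4, was measured in every library with a mean count that gives a counting error of 18.9%, close to the spread within groups of 19.4%. In the colon the GermFree mice 1 to 7 held 8.63, 7.31, 12.2, 11.8, 6.89, 8.04 and 10.8 CPM (mean 9.38 ± 2.18, SD), against 12.9, 14.04, 22.4, 12.1 and 12.7 CPM in ConvR mice 1 to 5 (mean 14.8 ± 4.30, SD). All GermFree mice but mouse 3 lay below every ConvR mouse, and ConvR mouse 3 lay far above the other 4. The fitted log2 difference was -0.71 (SE 0.18). It was -0.48 without ConvR mouse 3 and between -0.78 and -0.65 when any other mouse was left out. In the fit across all regions it was the 1 of 16 receptor regions past the threshold, against 0.542% of all tested regions, and nothing is read from that count because the comparison chose the genes. The region was not past it in DESeq2, with the mouse number or the title code as a block, or without ConvR mouse 3 or GermFree mouse 1, 2, 5 or 6. Mouse numbers 6 and 7 and 1 title code hold GermFree mice only, so these mice add nothing to the blocked difference. Deviations of same-numbered mice of the 2 models in a section had a median r of -0.011.

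In the small intestine the difference at Ifnar1 region 4 passed the threshold in no section, and its variation among these sections was not tested. In the ileum the lowest, median and highest of the GermFree mice were 11.0, 14.1 and 17.0 CPM (mean 13.6 ± 2.24), against 18.2, 18.2, 23.1, 20.01 and 13.7 CPM in ConvR mice 1 to 5 (mean 18.6 ± 3.43, SD; log2 -0.40, SE 0.16; edgeR adjusted p = 0.798). Of the GermFree mice 3 lay below all ConvR mice, and the other 4 lay above ConvR mouse 5 and below the remaining ConvR mice. In the jejunum the GermFree mice ran from 8.61 over a median of 14.1 to 15.1 CPM (mean 12.5 ± 2.80), against 11.5, 12.1, 8.98, 10.8 and 11.3 CPM in ConvR mice (mean 10.9 ± 1.18, SD; log2 0.18; edgeR adjusted p = 0.986). There 4 GermFree mice lay above every ConvR mouse. In the duodenum the GermFree mice ran from 10.9 over a median of 13.2 to 16.5 CPM (mean 13.9 ± 1.95), against 16.4, 11.9, 13.6, 13.1 and 15.4 CPM in ConvR mice (mean 14.1 ± 1.78, SD), and the groups overlapped almost fully. Summed over the 3 sections the level was 13.5 ± 1.65 CPM in GermFree mice and 14.6 ± 0.593 in ConvR mice (SD; log2 -0.10, SE 0.09; edgeR adjusted p = 0.995).

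Whether the difference between the models varied between colon and small intestine was fitted over all 48 libraries, without the mouse as a block. For this comparison edgeR called 0 of all 95876 tested regions (0%) and 0 of the 21 receptor regions, with 4607 and 1 at an unadjusted p under 0.05, and DESeq2 called 0. That 1 was Ifnar1 region 4, where the difference in the colon was lower than the mean difference of the small intestinal sections by a log2 of -0.63 (SE 0.20). This value contains the colon contrast used for the choice and is a description. With the mouse as a block a few of all regions passed in this comparison, and 0 of the 21 receptor regions.

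**Figure D2:**
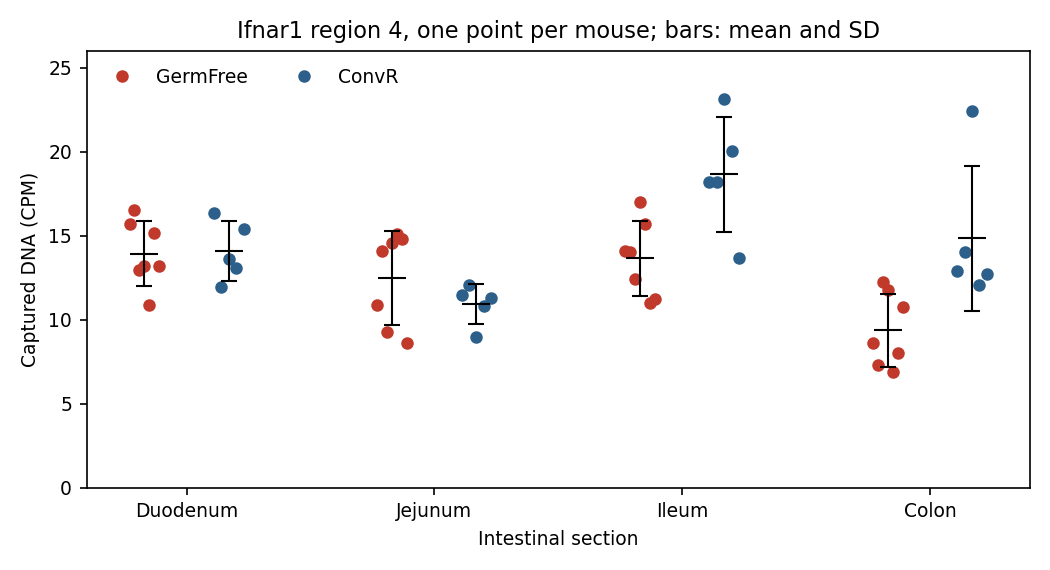
Captured DNA at Ifnar1 region 4 in CPM (vertical axis) in each intestinal section (horizontal axis), with 1 point per mouse, GermFree in red on the left and ConvR in blue on the right, and bars for mean and SD. GermFree mice average 9.38 CPM and ConvR mice 14.8 CPM in the colon, where 1 ConvR mouse stands at 22.4 CPM, and the groups overlap in every section.

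Summed over its 5 regions, Ifnar1 was lower in the ileum of all GermFree mice than in any ConvR mouse. The summed level there ran from 4.58 to 5.93 CPM per kb in GermFree mice (mean 5.43 ± 0.431, SD, n = 7), against 6.57, 6.24, 6.92, 6.97 and 6.33 CPM per kb in ConvR mice 1 to 5 (mean 6.61 ± 0.333, SD). Of the 6 genes it was the 1 without overlap in the ileum, where 0.357% of the 30228 genes with a region within 5 kb had none. In the duodenum, jejunum and colon 0 of the 6 genes separated, against 0.595%, 0.294% and 0.642% of all genes. This sum was singled out after its values were seen and has no test. Without region 4 the ileum values were 5.18 ± 0.667 CPM per kb in GermFree mice and 5.96 ± 0.368 in ConvR mice (SD), with 5 of 7 GermFree mice below every ConvR mouse. In the jejunum the sum of the 5 regions was 5.60 ± 1.21 CPM per kb in GermFree mice and 5.31 ± 0.459 in ConvR mice (SD).

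**Figure D3:**
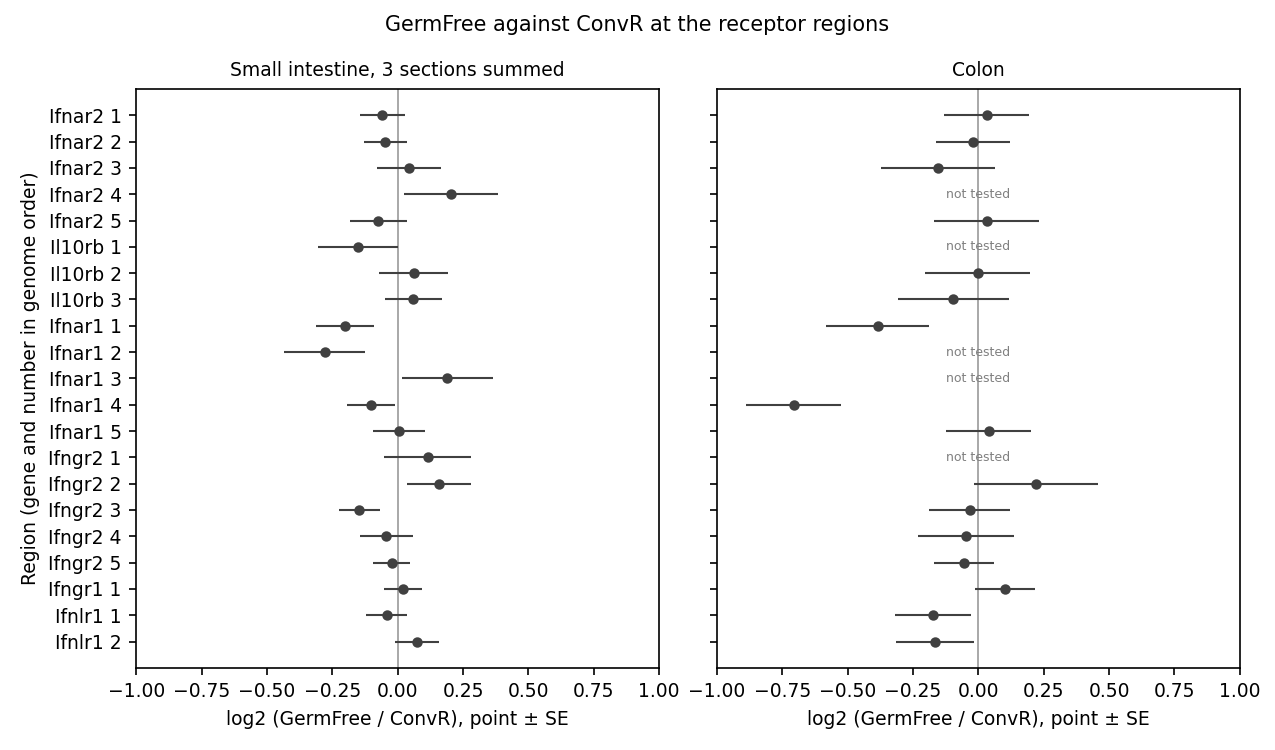
Difference between GermFree and ConvR mice as log2 of GermFree over ConvR (horizontal axis) at each of the 21 receptor regions (vertical axis, gene and number in genome order), for the summed small intestine on the left and the colon on the right, with bars of 1 SE. In the small intestine the points lie between -0.28 and 0.20, and in the colon Ifnar1 region 4 stands at -0.71 while 5 regions had too few counts to be tested.

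Between colon and small intestine 1 of the 21 receptor regions passed the threshold, a count near the share of 2.39% over all regions. It was 1 of the 5 regions at the interferon gamma receptor gene Ifngr2 and held less captured DNA in the colon. This was Ifngr2 region 3, with 16.5 ± 3.11 CPM against 21.1 ± 2.20 CPM for the mean of the 3 small intestinal sections (SD, n = 12 mice; log2 -0.37, SE 0.08, a change of -22.8%; edgeR adjusted p = 0.00376). In the colon the 12 mice ran from 10.9 to 20.6 CPM. The ileum was highest with 23.3 ± 3.31 CPM, the jejunum had 20.6 ± 2.85 and the duodenum 19.4 ± 3.11 (SD, n = 12). The colon lay below the mouse's own small intestinal mean in 10 of 12 mice. The 2 exceptions were GermFree mouse 2, with 20.6 CPM in the colon and 19.4 in its small intestine, and ConvR mouse 3, with 20.3 and 18.0. The call held in DESeq2 (log2 -0.37; adjusted p = 0.0114) and when any 1 mouse was left out, with log2 from -0.45 to -0.32 and a largest edgeR adjusted p of 0.0479, reached without ConvR mouse 5. The lower colon level did not differ detectably between the models. Ifngr2 region 3 held 16.3 ± 2.79 CPM in the colon of GermFree mice and 16.7 ± 3.85 in that of ConvR mice (SD), and the difference of the 2 effects had a log2 of 0.12 with a 95% interval from -0.21 to 0.45.

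**Figure D4:**
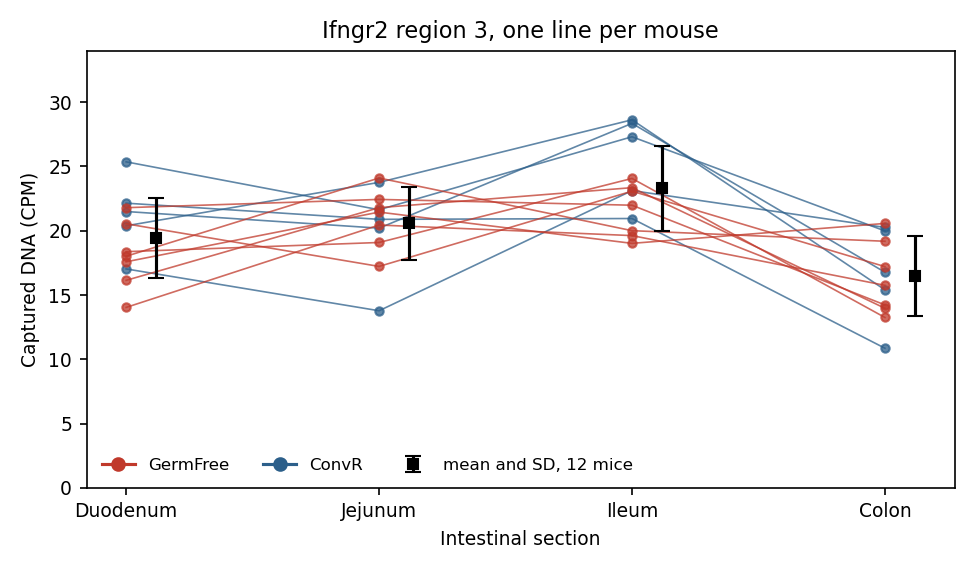
Captured DNA at Ifngr2 region 3 in CPM (vertical axis) along the gut (horizontal axis), with 1 line per mouse, red for GermFree and blue for ConvR, and black squares with bars for mean and SD of 12 mice. The mean is 16.5 CPM in the colon, below 23.3 CPM in the ileum, 20.6 in the jejunum and 19.4 in the duodenum.

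This was the 1 receptor region of 21 past the threshold between colon and small intestine, against 2.39% of all regions. The count behind that share, 2295, ran from 728 without ConvR mouse 5 to 3869 without ConvR mouse 3, and was also over 1.5 times lower without ConvR mouse 1 (1378), 2 (1526) or 4 (1156) or GermFree mouse 4 (1074). Of the 2295 called regions, 1713 were higher in the colon. At an unadjusted p under 0.05 there were 5 of 21 in edgeR (23.8%) and 4 in DESeq2, against 15.0% of all regions in edgeR, and all 5 were lower in the colon. Among these 5 is Ifnar1 region 4, whose low colon counts in GermFree mice led to the choice of genes. The share and its direction are therefore a description. Of the 21 log2 differences 14 were below 0, with a range of -0.37 to 0.18 and a median of -0.05, and the median over all regions was near 0. No other Ifngr2 region passed. Regions 4 and 5, downstream of region 3, had 11.8 ± 2.79 and 45.0 ± 5.80 CPM in the colon against 11.6 ± 1.28 and 45.0 ± 2.85 in the small intestine (SD, n = 12), and region 2 had 7.46 ± 2.80 against 9.12 ± 1.59 (log2 -0.26; edgeR adjusted p = 0.336). Whether region 3 differs in this from its neighbours was not tested.

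At Il10rb, the chain shared with the interleukin-10 and interleukin-22 receptors, 2 of its own regions and the one it shares with Ifnar2 averaged less in the colon without passing the threshold. Il10rb region 3, at the end of the gene, held 8.19 ± 1.69 CPM in the colon and 10.8 ± 1.32 in the small intestine (SD, n = 12; log2 -0.37, SE 0.12; edgeR adjusted p = 0.0618), lower in the colon in 10 of 12 mice. With the mouse as a block its adjusted p was 0.0401, also from edgeR (log2 -0.38). It was 0.0391 with library totals in place of TMM (log2 -0.40) and 0.0262 without GermFree mouse 1 (log2 -0.44). Ifnar2 region 5 held 9.26 ± 1.67 CPM in the colon and 11.5 ± 1.66 in the small intestine (SD; log2 -0.33, SE 0.11; edgeR adjusted p = 0.0868), lower in 11 of 12 mice. Il10rb region 1 held 4.15 ± 1.28 CPM in the colon and 5.41 ± 0.97 in the small intestine (SD; log2 -0.36, SE 0.16; edgeR adjusted p = 0.252), also lower in 11 of 12 mice. Il10rb region 2, between them, had 9.11 ± 1.63 CPM in the colon and 8.53 ± 1.62 in the small intestine (SD).

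No region of the other receptor genes passed between colon and small intestine. Ifngr1 had 38.5 ± 3.71 CPM in the colon and 39.1 ± 2.82 in the small intestine (SD, n = 12; log2 -0.04, SE 0.07). Ifnlr1 regions 1 and 2 had 19.01 ± 3.83 and 17.6 ± 3.54 CPM in the colon against 20.2 ± 1.52 and 18.7 ± 1.71 in the small intestine (SD; log2 -0.06 and -0.05). Ifnar1 region 4 had 11.7 ± 4.15 CPM in the colon and 13.9 ± 1.37 in the small intestine (SD; log2 -0.21, SE 0.10; edgeR adjusted p = 0.289), with the colon below the small intestine in 10 of 12 mice. This last value holds the GermFree colon levels that led to the choice of genes, so it is a description. GermFree mice had 9.38 ± 2.18 CPM in the colon and 13.4 ± 1.53 in the small intestine (SD, n = 7), with the colon lower in 6. ConvR mice had 14.8 ± 4.30 and 14.6 ± 0.793 (SD, n = 5), with the colon lower in 4.

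**Figure D5:**
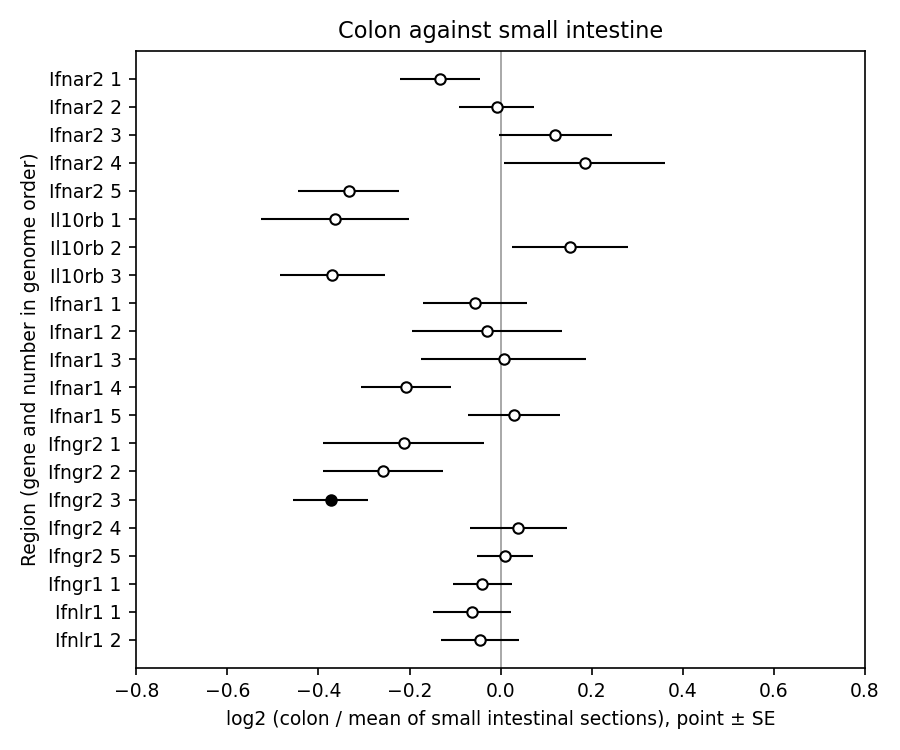
Difference between colon and small intestine as log2 of colon over the mean of the 3 small intestinal sections (horizontal axis) at each of the 21 receptor regions (vertical axis, gene and number in genome order), over 48 libraries with bars of 1 SE. The filled point is Ifngr2 region 3 at -0.37, the 1 region past the threshold, and open points are the others.

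Within the small intestine no receptor region passed. Between ileum and duodenum edgeR called 0 of 21, against 0.00209% of all regions, and between jejunum and duodenum 0 of 21, against 0%. DESeq2 called 0 of 21 in each. At an unadjusted p under 0.05 edgeR had 3 of 21 (14.3%) between ileum and duodenum and 1 of 21 (4.76%) between jejunum and duodenum, against 4.75% and 5.41% of all regions, and DESeq2 had 1 and 0. Ifngr2 region 3 was the smallest of these p values, with 23.3 ± 3.31 CPM in the ileum and 19.4 ± 3.11 in the duodenum (SD, n = 12; log2 0.28; edgeR adjusted p = 0.929), higher in the ileum in 11 of 12 mice. The others were Ifngr2 region 4 (log2 0.27) and Ifnar2 region 2 (log2 -0.21) between ileum and duodenum, and Ifnar1 region 4 (log2 -0.24) between jejunum and duodenum.

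The genes that act with the receptors had no call between the models and few between colon and small intestine, with a share of calls near that of all regions. Between GermFree and ConvR mice in the summed small intestine, edgeR called 0 of 60 regions at 13 genes of signal transduction (Janus kinases, STAT factors and their inhibitors), 0 of 13 regions at 11 genes of the ligands, 0 of 14 regions at 5 other class II cytokine receptors and 0 of 59 regions at 27 interferon-stimulated genes. At an unadjusted p under 0.05 there were 3, 0, 1 and 6, the last 2 above and the first 2 below the 5.17% of all regions (0.433% called). DESeq2 called 0 in each list. Their median log2 differences were -0.02, -0.04, 0.00 and -0.02. Section by section, edgeR and DESeq2 called 0 of the tested regions of these lists in all 4 sections. In the colon against the small intestine edgeR called 0, 0, 0 and 2, with 14, 1, 1 and 14 at an unadjusted p under 0.05 and medians of -0.06, -0.04, 0.00 and -0.10, and DESeq2 called 0, 0, 0 and 1. Over all regions 2.39% were called and 15.0% had an unadjusted p under 0.05. At that unadjusted p, 14 of 60 and 14 of 59 lay above the share of all regions and 1 of 13 and 1 of 14 below it, which was not tested. The 2 of 59 calls (3.39%) lie near the background. The 2 regions were at Gbp2, an interferon-induced GTPase gene of cell-autonomous defence, and within 5 kb of both Psmb8, a subunit gene of the immunoproteasome, and Tap1, a gene of the transporter that loads peptides for antigen presentation. A region at Gbp2 (chromosome 3, 142616058 to 142620876) rose to 29.8 ± 5.96 CPM in the colon, against 23.0 ± 4.68 in the small intestine (SD, n = 12; log2 0.40, SE 0.09; edgeR adjusted p = 0.00386), and passed in DESeq2 and with any 1 mouse left out. The region at Psmb8 and Tap1 (chromosome 17, 34200129 to 34201608) fell to 7.37 ± 2.09 CPM in the colon, against 9.79 ± 1.63 in the small intestine (SD, n = 12; log2 -0.43, SE 0.12; edgeR adjusted p = 0.0357). It did not pass in DESeq2 (adjusted p = 0.0643), nor without ConvR mouse 1, 2, 4 or 5 or GermFree mouse 1, 4, 5 or 6, with a log2 of -0.30 without ConvR mouse 2.

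The regions at neighbouring genes within 250 kb of the chromosome 16 cluster include receptor regions that also lie near such a gene, such as Ifnar2 region 1 at Gm36587 and Ifngr2 region 5 at Tmem50b. Of these 69 regions at 20 genes, edgeR and DESeq2 called 0 between the models in any section or in the summed small intestine (3 of 69 at an unadjusted p under 0.05 in edgeR). Between colon and small intestine edgeR called 1 of 69, against 2.39% of all regions. DESeq2 called 0 there and gave this region no adjusted p. That region, at the predicted gene Gm24695 upstream of Ifnar2 (91347481 to 91348387), held 4.40 ± 1.81 CPM in the colon and 6.41 ± 1.15 in the small intestine (SD, n = 12; log2 -0.59, SE 0.16; edgeR adjusted p = 0.0294). It did not pass without ConvR mouse 2, 4 or 5 or GermFree mouse 4, 5 or 6, and its log2 was -0.97 without ConvR mice 1 and 3. Between ileum and duodenum and between jejunum and duodenum each of these lists had 0 calls in edgeR and in DESeq2, as did, in all comparisons, the marker lists of epithelium (28 regions), leukocytes (16), smooth muscle (17) and enteric neurons and glia (20).

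Within groups, the receptor regions showed little correlation with each other. The deviations of log2 CPM from group means had a median Pearson r of 0.02 over the 210 pairs of regions (-0.37 to 0.47), and of 0.03 over the 17 pairs of neighbours on chromosome 16 (-0.27 to 0.28). The libraries share depth and scaling, and much of the spread is counting error, so these values are a description. Spread within groups ran from 10.7% of the mean at Ifngr2 region 5 to 38.5% at Ifngr2 region 1, where counting alone gives 10.3% and 33.8%. Across all 48 libraries, the autosomal region most like the highest region of each gene in log2 CPM lay at Gm30081 for Ifnar1 region 5 (Pearson r 0.67), at Vwa2 for Ifnar2 region 2 (0.60), at Prdm10 for Ifngr1 (0.58), at Mertk for Ifngr2 region 5 (0.62) and at Epb41l3 for Ifnlr1 region 1 (0.58). For Ifnar2 region 5, the highest at Il10rb, it lay near no gene, and the next was at Gm32255 (0.58). Each was the highest of at least 94294 correlations over 48 libraries that share mice and sections, and is given as a description.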

How the data were processed

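MBD-seq was analysed in 48 libraries, 4 intestinal sections of 12 mice, grouped by the sample characteristics. The submitters' processing notes name Trim Galore 0.3.7, cutadapt 1.4.2, MACS2 and featureCounts, with the build mm10. Not given in the sources used here are the aligner, the treatment of duplicates and of multiply placed reads, and the libraries on which MACS2 was run. Each region's name holds the word GermFree, and if MACS2 was run on those libraries, regions seen in ConvR mice alone would be missing. The table deposited by the authors holds raw counts per region without normalization. The deposited peak list gives positions and a score per region, the authors' own value, used here to filter regions in an alternative.

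Regions were assigned to genes that they overlapped or lay within 5 kb of in a RefSeq table of GRCm38.p6, which has neither strand nor exons. Counts were tested with edgeR 4.0.16 in R 4.3.3 (quasi-likelihood F-test, TMM factors, trended dispersion, the tool's default filter on low counts, Benjamini-Hochberg adjustment over all tested regions, threshold 0.05), after a test of the steps on simulated data. GermFree and ConvR mice were compared per section and on small intestinal sums, with the mouse as replicate. Sections were compared over 48 libraries in 8 groups without the mouse as a block. The main p values between sections therefore ignore that the 4 sections come from the same mice, and the block was an alternative. SE is the log2 difference divided by the square root of F. Medians of region counts per library were 7 to 23, which limits the precision of any 1 region. DESeq2 1.42.0, other scalings (RLE size factors, library totals), no filter, a score of at least 10 (the median), autosomes only, other windows (0 and 20 kb), a fit of each section on all 48 libraries, blocks and leaving out mice were alternatives. The code in the sample titles, whose meaning is not given, was used as a block. CPM values, figures and summaries used Python 3.11.15, NumPy 2.4.6, pandas 2.3.3 and Matplotlib 3.10.9, and data.table, version 1.17.8, read the counts.

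The receptor genes, gene lists and tests were chosen with earlier results of these data known. All receptor regions are named. List members are named where they passed the threshold, and the likeness rule took autosomal regions of at least 2 CPM outside 1 Mb, on log2 of CPM plus 0.5. The sum over Ifnar1 regions was chosen after its values were seen. The mouse label pairs the 4 sections of a mouse, whose libraries' deviations from group means correlated with a median r of 0.0198 over 72 pairs. No column was left unmatched.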

Additional observations from a re-analysis of the deposited data

Results flagged for a closer look

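Dixon's test for a sample far from its group was applied to the 168 groups of 21 receptor regions, 4 sections and 2 models, and 10 groups (5.95%) had such a sample, where chance gives about 1 in 20. At Ifnar1 region 4 the colon of ConvR mouse 3 held 22.41 CPM, with the other ConvR mice between 12.08 and 14.04. At Ifnar1 region 1 the duodenum of GermFree mouse 4 held 13.68 CPM, with the others at 7.024 to 9.309. At Ifnar2 region 4 the ileum of GermFree mouse 7 was low with 1.183 CPM, against 3.924 to 5.788 in the others.

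Il10rb region 1 had such a sample in both models. The jejunum of ConvR mouse 1 held 11.45 CPM, with the others at 4.434 to 5.989, and the ileum of GermFree mouse 2 held 9.922 CPM, with the others at 4.317 to 6.017. At Ifngr2 region 1 the jejunum of ConvR mouse 2 was high with 6.232 CPM (others 3.593 to 4.351) and the ileum of ConvR mouse 1, the shallowest library, was low with 1.011 CPM (others 3.749 to 4.379). The jejunum of ConvR mouse 4 was low at Ifngr2 region 5 with 38.43 CPM, against 45.25 to 46.11. At Ifngr1 the jejunum of GermFree mouse 4 was low with 35.82 CPM, against 40.48 to 43.11. At Ifnlr1 region 1 the ileum of GermFree mouse 6 was high with 27.51 CPM, against 18.32 to 21.5.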

How the results depend on the processing

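Of 366 values of single regions under other settings, 330 kept their direction and their side of the threshold. Most of the 366 were of regions not past the threshold in the main fit, which had no call to lose. All 24 losses of a call were at Ifnar1 region 4 in the colon (9), the Psmb8 and Tap1 region (9) and the Gm24695 region (6). Ifngr2 region 3 and the Gbp2 region, between colon and small intestine, kept their calls in all 20 settings each. The 1 call among receptor regions in the colon between the models, at Ifnar1 region 4, became 0 in DESeq2 (log2 -0.69), with the title code as a block (-0.64), with the mouse number as a replicate block (-0.68) and without ConvR mice 1 and 3 (-0.49), and 0 to 1 when leaving out a mouse: it was lost without ConvR mouse 3 and without GermFree mouse 1, 2, 5 or 6. In the duodenum its difference, 0.00 in the main fit, was -0.0177 with library totals, -0.000253 in DESeq2, -0.0301 with the replicate block, and -0.0654 to 0.0664 when leaving out a mouse.

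With the mouse as a replicate block, which the labels give for sections, 3615 regions passed between colon and small intestine in place of 2295 (2 receptor regions in place of 1), 14 between jejunum and duodenum in place of 0, and 14 for the variation of the model difference in place of 0; it changed no other call of a receptor region. With library totals 2 receptor regions passed. Leaving out a mouse gave 1 to 2 receptor regions and 728 to 3869 regions in all, with 1378, 1526, 3869, 1156 and 728 without ConvR mice 1, 2, 3, 4 and 5, and 1074 without GermFree mouse 4. DESeq2 called 1375 there. Across all regions between the models, autosomes alone gave 242 in the summed small intestine, 195 in the duodenum, 122 in the jejunum, 158 in the ileum and 221 in the colon, and DESeq2 gave 226 in the duodenum, 147 in the jejunum, 166 in the ileum and 244 in the colon, against 415, 349, 281, 312 and 402 in the main fits. The jejunum fitted with all 48 libraries gave 179. The 2 regions between ileum and duodenum became 0 in DESeq2, with scores at or above the median, and without ConvR mice 1 and 3, and 0 to 2 when leaving out a mouse. The causes were not tested. Depth limits single regions: 5 receptor regions could not be tested in the colon.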
